A study of Mus musculus with 6 samples.

Results

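The genes described here copy DNA or supply its building blocks. They form a list of 48 named genes, and were found on the array as all probe sets whose single gene symbol in the platform annotation is one of those names. A probe set is a group of short oligonucleotides designed against 1 transcript. Of the 48 genes, 45 were on the array, out of 8251 genes with a symbol of their own, and they were read by 59 of 12422 probe sets. Orc3, Pole and Tyms had no probe set under that symbol alone.

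RNA came from dissected lungs of mouse embryos (Mus musculus) at stage E11.5, counted in days of gestation, when the lung buds are sending out side branches. The branching region was taken from the right and the left lung. The non-branching region was the main bronchi together with part of the trachea. Each region was read on 3 arrays, 1 sample per array, called replicates 1 to 3. Both regions came from the same stage, and no treatment or genotype is given. The labels do not say whether replicates came from separate embryos or litters, so p-values cover the spread among these samples alone, and that spread may be technical. With so few arrays, precision is limited by their number.

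DNA replication starts with licensing. The origin recognition complex (Orc genes) marks an origin, and Cdc6 and Cdt1 load the ring-shaped MCM helicase onto it, a step that geminin (Gmnn) blocks once S phase has begun. Cdc7 kinase, cyclin E and Cdc45 turn the loaded helicase on. Polymerase alpha with primase then lays primers, polymerases delta and epsilon extend them, the clamp Pcna, loaded by the Rfc complex, holds polymerases on the template, and Rpa covers single-stranded DNA. Fen1 and Lig1 finish the lagging strand, ribonucleotide reductase and thymidine kinase supply nucleotides, and chromatin assembly factor 1 (Chaf1a, Chaf1b) puts histones on the new DNA. Many of these transcripts are made mainly around S phase, so their level in a tissue rises with the share of dividing cells. In the early lung both epithelium and mesenchyme are dividing.

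Transcripts of this machinery read higher in the branching region for most members, and for 4 of them the difference passed the test. Those 4 were Rrm2, the regulated small subunit of ribonucleotide reductase (1.99-fold), Chaf1b, the middle subunit of chromatin assembly factor 1 (1.85-fold), Pcna, the sliding clamp (1.83-fold), and Tk1, the cytosolic thymidine kinase of S phase (1.72-fold). None was lower. Each difference is the branching minus the non-branching mean of log2 signal, with its standard error. It was tested with limma over all probe sets, and a gene was called at a Benjamini-Hochberg adjusted p under 0.05. Where a gene had several probe sets, the brightest one stood for it. Of the 45 genes, 42 passed the filter on dim signal and were tested, of which 4 were called higher (9.52%), 0 lower and 38 neither. Over all 6798 genes tested, 68 were called higher (1.0%) and 90 lower (1.32%), and over all 9316 probe sets 0.902% and 1.13%. At an unadjusted p under 0.05 and on these brightest probe sets, limma found 18 of the 42 higher and 0 lower, against 7.16% and 8.43% of all genes.

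A difference above 0 was measured for 38 of the 42 members (90.5%), against 49.0% of all genes. The median difference was 0.38 for the members and -0.01 for all genes tested. For 34 members the sign was the same under each alternative fit of the same probe set and each omission of 1 array. It changed at least once for the other 8, Ccne1, Orc4, Pold1, Pole2, Prim1, Rfc3, Rrm1 and Ung, none of them called. In 24 of the 42 (57.1%), all 3 branching arrays read above all 3 non-branching arrays, which held for 10.2% of all genes, and in 0 of the 42 they all read below, against 11.7%. The lower and upper quartiles of the member differences were 0.17 and 0.52, below the differences of the 4 genes that were called, which ran from 0.78 to 0.99.

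**Figure D1:**
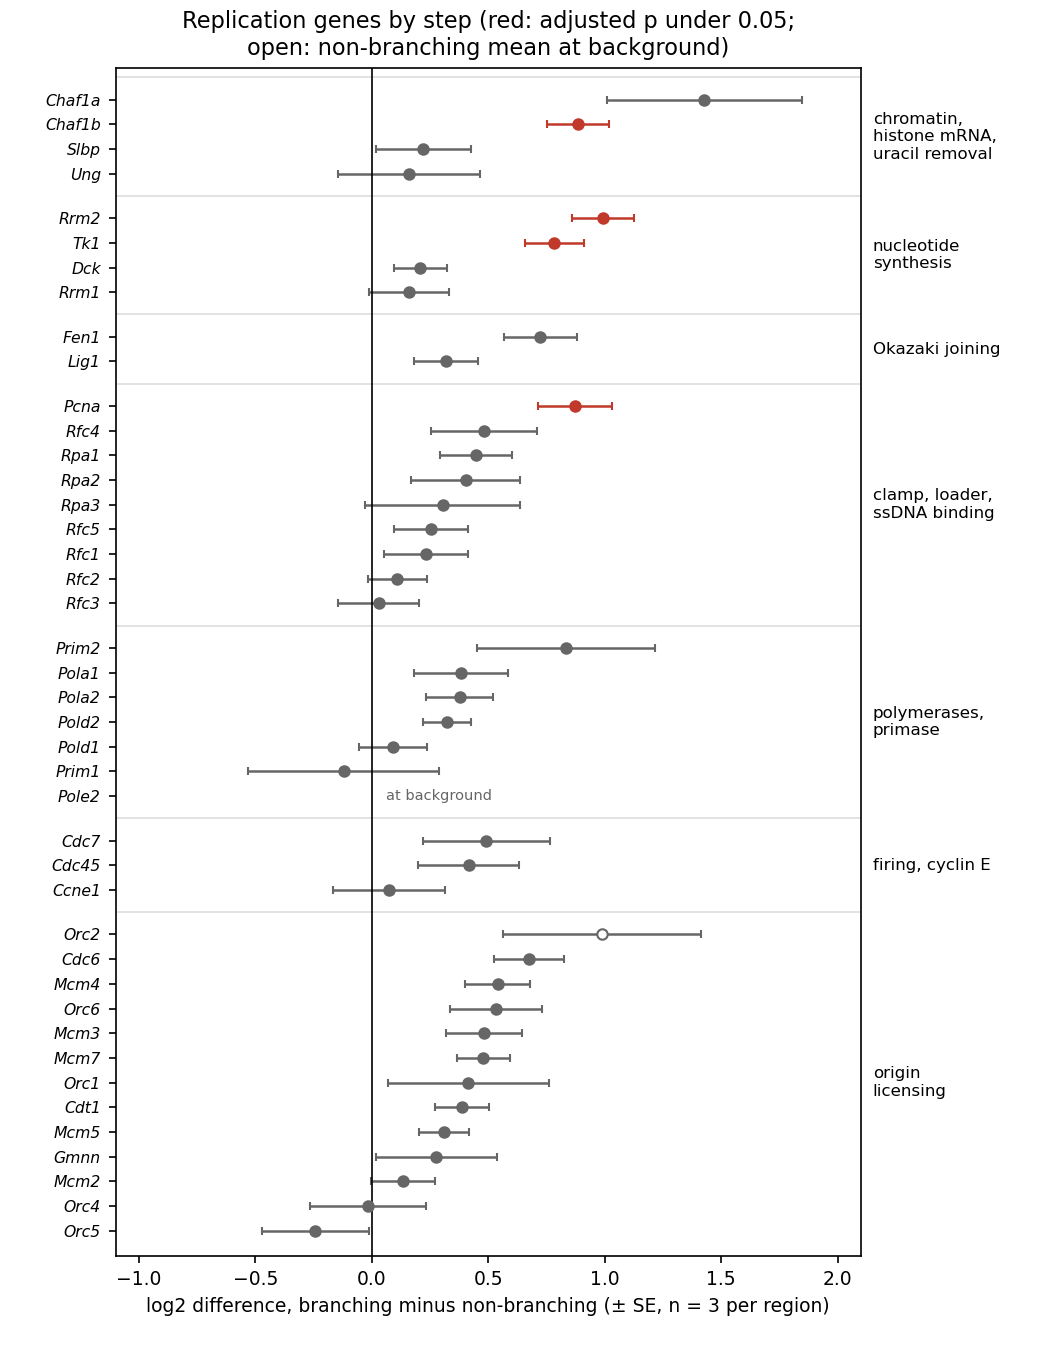
Log2 difference between the regions (x axis, branching minus non-branching, with its standard error, n = 3 arrays per region) for each member tested, grouped by step of replication. Rrm2, Chaf1b, Pcna and Tk1, in red, passed at an adjusted p under 0.05. Orc2, drawn open, had a non-branching mean at background, and Pole2 is left blank because both of its means lay there.

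The shift was seen on every array rather than on 1 of them. After each gene's mean over the 6 arrays was subtracted, the median over the 42 members was 0.24, 0.20 and 0.25 on the branching arrays 1 to 3. It was -0.23, -0.17 and -0.14 on the non-branching arrays. The regions did not overlap. Over all genes tested the same median lay between 0.00 and 0.03 on the 6 arrays.

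**Figure D2:**
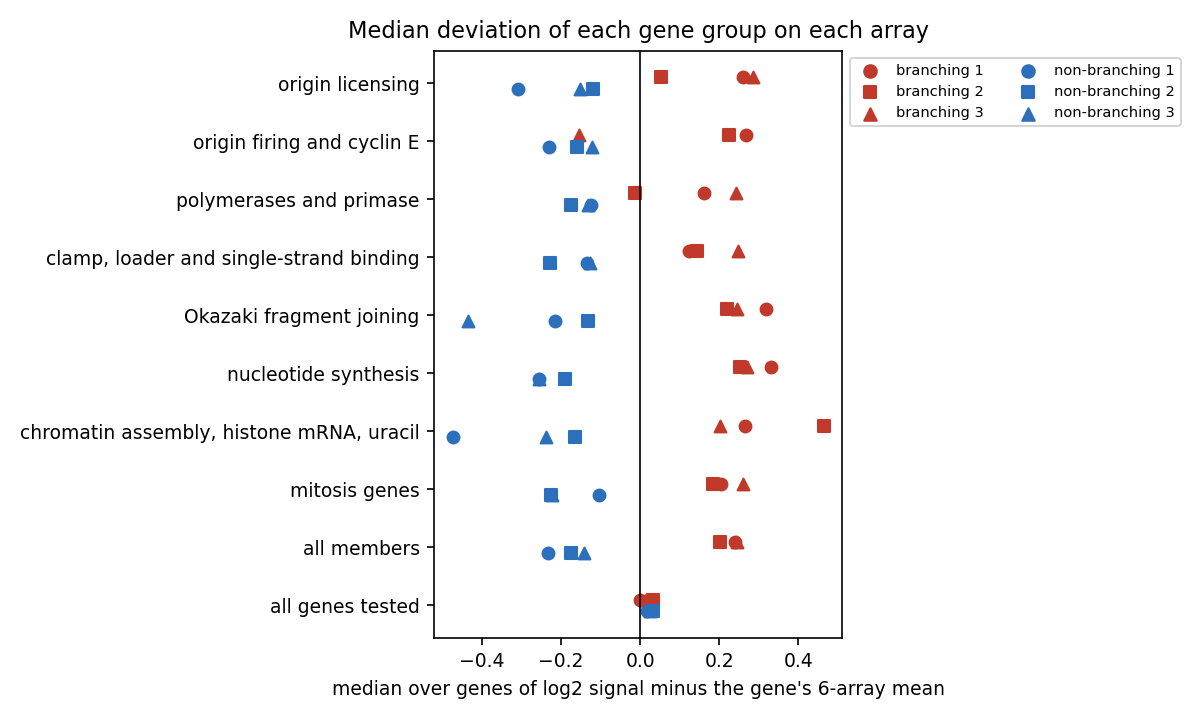
Median over the genes of a group of the log2 signal minus each gene's mean over the 6 arrays (x axis), with 1 point per array, for the steps of replication, for mitosis genes, for all members and for all genes tested. Over all members the branching arrays lie at 0.20 to 0.25 and the non-branching arrays at -0.23 to -0.14, while for origin firing and cyclin E branching replicate 3 lies at -0.16, among the non-branching arrays.

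Marker signals of several other cell types differed between the regions as well. Of 19 red blood cell markers, 12 were on the array, 11 were tested and 4 were called higher in branching. Their summed signal was 143163 to 157698 on the branching arrays and 92563 to 100795 on the non-branching arrays, and the genes called were the globins Hba-a1, Hba-x, Hbb-b2 and Hbb-y. Lower in branching were the summed signals of smooth muscle markers (7211 to 7746 against 12585 to 13677, 8 of 11 on the array), cartilage markers (3763 to 3846 against 6563 to 6822, 13 of 16) and cardiac markers (3471 to 3608 against 5427 to 6210, 16 of 18). By gene, 7 of 8 smooth muscle, 6 of 9 cartilage and 10 of 11 cardiac markers tested had a difference below 0, and limma called 5, 3 and 2 of them lower and 0 higher.

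Endothelial markers summed to 5632 to 5950 in branching and 6790 to 7199 in non-branching (12 of 14 on the array), with 11 of 12 tested below 0 and 1 called lower. Neuronal and neural crest markers summed to 4729 to 5276 and 5333 to 6087 (17 of 22), but the genes showed no common direction, with 6 of 11 tested above 0, 5 below and a median of 0.02. Limma called 1 of the 11 lower and 0 higher, and at an unadjusted p under 0.05 found 3 lower and 1 higher. Leukocyte markers overlapped (2612 to 3256 and 2324 to 3023, 15 of 16), with Ptprc and Itgam among 6 at background on every array. Markers of the labelled tissue were present. Lung and airway epithelium markers had overlapping sums, at 9132 to 10114 and 8994 to 10125 (15 of 18), none of them at background on all arrays. By gene they went both ways, with 8 of 14 tested above 0 and 6 below. Their differences ran from -1.28 to 1.99, and limma called 0 higher and 0 lower. Lung mesenchyme markers had a lower sum in branching, at 22416 to 22746 against 33244 to 34739 (15 of 18), with Fgf10 at background throughout. Its genes went both ways, with 2 of 14 tested called higher, 4 called lower and 5 above 0. Myh6, Myl2 and Nkx2-5 were among 7 cardiac markers at background on every array, Acan among 4 cartilage markers, and Snap25 among 7 neuronal and neural crest markers. Smtn, in the smooth muscle list, and Epb42, in the red blood cell list, were there too. Whether any of these lists contributes to the replication result was not tested. In pieces of tissue like these, fewer cells of a type and less RNA per cell cannot be told apart.

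A signal under 147 was taken as background. This is the level that 95% of 114 readings of bacterial and yeast controls (19 probe sets) stayed under. Array medians ran from 212 to 229. Non-branching replicate 2 had the highest median of those controls, 78.8, beside 19.8 to 40.7 elsewhere. The log2 ratio of the 3' to the 5' actin probe set, a sign of RNA quality, was 0.75 on non-branching replicate 3 and 0.20 to 0.49 elsewhere. For Gapdh the same ratio did not set that array apart, at -0.16 beside -0.17 to 0.06 elsewhere.

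Among the nucleotide genes, Rrm2 (Entrez gene 20135) had the smallest p of all members. Its signal was 1553, 1856 and 2013 on branching replicates 1 to 3 and 893, 903 and 909 on non-branching replicates 1 to 3. The branching arrays were all far above the non-branching ones, which lay close together. The means were 1807 ± 234 (SD, n = 3) and 902 ± 8.07, a difference of 0.99 ± 0.13 (limma adjusted p = 0.00661). Leaving out any 1 array kept the call, with an adjusted p of 0.0407 at most, reached without branching replicate 3.

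Tk1 (Entrez gene 21877) salvages thymidine for DNA. It read 3053, 2895 and 3330 on the branching arrays and 1887, 2009 and 1520 on the non-branching arrays, again without overlap. The difference was 0.78 ± 0.13 (limma adjusted p = 0.0160). The call was lost when replicate 3 of branching (adjusted p = 0.0813) or of non-branching (adjusted p = 0.0618) was left out. It was also lost when dim probe sets were kept in (adjusted p = 0.0631) and when a gene's probe sets were averaged. A second, dim probe set of Tk1 had means at background in both regions.

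The other nucleotide genes had smaller differences. Dck, which phosphorylates deoxycytidine, read 1554, 1686 and 1487 in branching and 1334, 1320 and 1437 in non-branching on a probe set of a less specific design. Its regions did not overlap, but the difference of 0.21 ± 0.11 did not pass (limma adjusted p = 0.450). Rrm1, the large subunit of ribonucleotide reductase, differed by 0.16 ± 0.17 (adjusted p = 0.745), with branching replicate 1 at 2688 and the other 5 arrays between 1671 and 2120. The subunits of this enzyme thus had differences of 0.99 and 0.16, and the difference between them was not tested. Dut, which keeps uracil out of DNA by clearing dUTP, was at background on all 6 arrays and was not tested.

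In the group of chromatin and repair genes, Chaf1b (Entrez gene 110749) read 1548, 1557 and 1614 on the branching arrays and 983, 778 and 807 on the non-branching arrays. The regions were well apart, and the branching replicates were close together (1573 ± 35.9, SD, n = 3). The difference was 0.89 ± 0.14 (limma adjusted p = 0.0120). It did not pass without branching replicate 3 (adjusted p = 0.0663), non-branching replicate 2 (0.0510) or non-branching replicate 3 (0.0623).

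Chaf1a, the large subunit of the same complex, read 524, 638 and 672 in branching and 106, 336 and 325 in non-branching. The regions did not overlap, and non-branching replicate 1 lay far below the others, under the background level. Its difference of 1.43 ± 0.42 was the largest point estimate among the members, but it did not pass (limma adjusted p = 0.141). Without that array the difference was 0.88 (adjusted p = 0.115).

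Slbp, the protein that binds the stem-loop of histone mRNA, read 603, 803 and 573 in branching and 668, 530 and 495 in non-branching, so its regions overlapped (0.22 ± 0.20, limma adjusted p = 0.687). Ung, the uracil glycosylase, differed by 0.16 ± 0.30 (adjusted p = 0.864) on the brighter of its probe sets, of a less specific design, and by 0.17 ± 0.14 (adjusted p = 0.633) on the other.

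Pcna (Entrez gene 18538) was the member called among the clamp, loader and single-strand binding genes. It read 2680, 3719 and 3712 in branching and 2145, 1602 and 1752 in non-branching. Branching replicate 1 was the lowest of its region and non-branching replicate 1 the highest of its own, yet the regions stayed apart. The difference was 0.87 ± 0.16 (limma adjusted p = 0.0257), and it passed in 2 of the 6 omissions of 1 array. When it did not pass, the array left out was branching replicate 2 (adjusted p = 0.0898) or 3 (0.110), or non-branching replicate 2 (0.106) or 3 (0.112). Pcna was not called either when dim probe sets were kept in (adjusted p = 0.103).

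The call of all 4 genes also depends on the variance model. Without the trend of the variance on signal, limma called none of the 42 members, with adjusted p from 0.104 for Rrm2 to 0.204 for Pcna, and the same held when variances were not moderated at all (0.0829 to 0.228). The log2 differences themselves are the same in those fits.

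**Figure D3:**
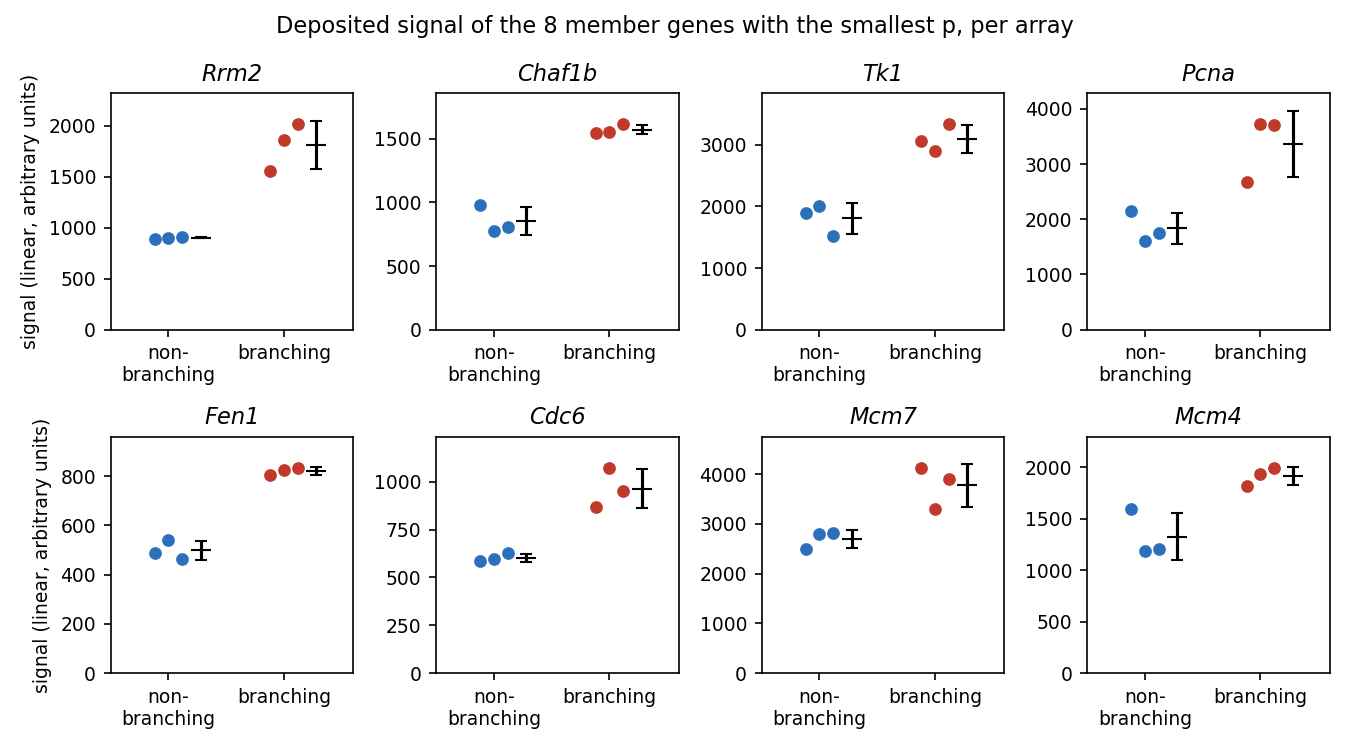
Deposited signal (linear scale from 0, arbitrary units) of the 8 members with the smallest p on each array, with replicates 1 to 3 from left to right in each region and the mean with its SD beside them. In all 8 genes the 3 branching arrays lie above the 3 non-branching arrays, but Fen1, Cdc6, Mcm7 and Mcm4, in the lower row, did not pass the test.

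The clamp loader showed small differences. Rfc4, a small subunit, read 484, 419 and 444 in branching and 391, 316 and 268 in non-branching, without overlap, and its difference of 0.48 ± 0.23 did not pass (limma adjusted p = 0.374). The regions overlapped for the other 4 Rfc genes, whose differences ran from 0.03 for Rfc3 to 0.25 for Rfc5. Rpa1, the large subunit of the single-strand binding protein, read 1071, 1499 and 1329 in branching and 929, 895 and 1008 in non-branching. Its regions did not overlap (0.45 ± 0.15, adjusted p = 0.212), nor did those of Rpa2 (0.40 ± 0.23, adjusted p = 0.477), while those of Rpa3 did (0.30 ± 0.33, adjusted p = 0.747). All 9 genes of this step had a difference above 0, with a median of 0.30.

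Of the genes that finish Okazaki fragments, Fen1 (Entrez gene 14156), the flap endonuclease, came close to a call. It read 804, 825 and 833 in branching and 489, 541 and 464 in non-branching. The replicates were tight and the regions far apart, with a difference of 0.72 ± 0.16 (limma adjusted p = 0.0542). It passed with each array centred on its median (adjusted p = 0.0465), with a stricter filter that dropped the dimmer 50% (0.0343) and with array weights (0.0386), and in 0 of the 6 omissions of 1 array. Lig1, DNA ligase I, read 2031, 1729 and 1773 in branching and 1597, 1619 and 1241 in non-branching (0.32 ± 0.14, adjusted p = 0.336).

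Origin licensing was the step with the most members, and none of its 13 tested genes was called by limma, although 8 of the 13 were higher at an unadjusted p under 0.05 and 0 lower. The median difference was 0.41, and 11 of the 13 were above 0. The largest difference among those above background in both regions was that of Cdc6 (Entrez gene 23834), a loader of the helicase. It read 868, 1072 and 952 in branching and 583, 595 and 627 in non-branching, without overlap (0.68 ± 0.15, adjusted p = 0.0619). Cdc6 passed under that stricter filter (adjusted p = 0.0423) and with array weights (0.0446), and in 0 of the 6 omissions of 1 array.

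The differences of the 5 MCM helicase subunits tested were all above 0 and varied in size, and none passed. Mcm7 read 4127, 3297 and 3911 in branching and 2495, 2802 and 2816 in non-branching (0.48 ± 0.11, limma adjusted p = 0.0705). Mcm4 read 1817, 1935 and 1995 against 1591, 1182 and 1209 (0.54 ± 0.14, adjusted p = 0.0946), and passed without non-branching replicate 1, its highest non-branching array (adjusted p = 0.0427). In both genes the regions did not overlap, but neither passed with all arrays. The same held for Mcm3 (0.48 ± 0.16, adjusted p = 0.209), on a probe set of a less specific design, and Mcm5 (0.31 ± 0.11, adjusted p = 0.214). A second Mcm3 probe set, not of that design, differed by 0.47 ± 0.20 without overlap (limma adjusted p = 0.323). Mcm2, with 2453, 1748 and 2280 in branching and 1865, 1974 and 2010 in non-branching, overlapped and differed by 0.13 ± 0.14 (adjusted p = 0.731). Mcm6, the sixth subunit, was at background on all 6 arrays, between 8.7 and 30.5, and was not tested. These values cannot tell a low transcript from a probe set that does not read it.

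Cdt1, the partner of Cdc6 in loading, had the tightest branching replicates of the step at 1500, 1504 and 1487, above 1064, 1200 and 1179 in non-branching (0.39 ± 0.12, limma adjusted p = 0.149). Its inhibitor Gmnn differed by 0.28 ± 0.26 with overlap (adjusted p = 0.697). None of the origin recognition genes passed. Orc6 read 1144, 742 and 940 against 548, 710 and 677 (0.53 ± 0.20, adjusted p = 0.246). Orc2 read 240, 147 and 184 in branching, where replicate 2 was at background, as were all 3 non-branching arrays. With the non-branching values raised to the background level, Orc2 measured 1.27-fold higher in branching, and its difference did not pass (limma adjusted p = 0.329). A second Orc2 probe set was at background on every array. Orc1 overlapped (0.41 ± 0.35, adjusted p = 0.652), with a difference of 0.23 without non-branching replicate 3. Orc4 (-0.02 ± 0.25, adjusted p = 0.987) and Orc5 (-0.24 ± 0.23, adjusted p = 0.700) were the 2 licensing genes with a difference below 0. The Orc4 difference turned to 0.01 with quantile normalization and 0.02 with median centring. It also turned to 0.05 without branching replicate 2 or 3 and to 0.10 without non-branching replicate 3.

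Genes that turn the helicase on were also not called, 0 of 3 tested by limma, with 0 at an unadjusted p under 0.05. Cdc7, the kinase of the MCM complex, read 260, 283 and 332 in branching and 209, 186 and 226 in non-branching, without overlap (0.49 ± 0.27, adjusted p = 0.453). Cdc45, a cofactor of the helicase, read 1175, 1389 and 876 against 658, 1021 and 897 (0.42 ± 0.22, adjusted p = 0.426). Ccne1, cyclin E1, read 3006, 2531 and 1445 against 2480, 1940 and 1961, the widest spread in branching among these genes, and its difference of 0.07 ± 0.24 was within its standard error (adjusted p = 0.931). Ccne2 was at background on all arrays.

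Of 7 polymerase and primase genes tested with limma, 0 were called, and 2 were higher at an unadjusted p under 0.05. Pold2, the second subunit of polymerase delta, read 3716, 3082 and 3684 in branching and 2854, 2793 and 2702 in non-branching, on a probe set of less specific design (0.32 ± 0.10, adjusted p = 0.182). Pola2, the regulatory subunit of polymerase alpha, read 857, 1048 and 970 against 759, 703 and 745 (0.38 ± 0.14, adjusted p = 0.271). In both the regions did not overlap.

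Pola1, the catalytic subunit of polymerase alpha, differed by 0.38 ± 0.20 (adjusted p = 0.433), and Pold1, that of polymerase delta, by 0.09 ± 0.14 (adjusted p = 0.832). Neither primase subunit passed. Prim2 read 316, 337 and 485 in branching and 301, 119 and 255 in non-branching, where replicate 2 was at background (0.83 ± 0.38, adjusted p = 0.360), and without that array the difference was 0.43. Prim1, with 1 array of each region at background, overlapped widely (-0.12 ± 0.41, adjusted p = 0.934), and its sign turned in 3 of the 6 omissions of 1 array. Pole2, a subunit of polymerase epsilon, had means at background in both regions, and its value below 0 has no meaning as a fold.

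Second probe sets gave a mixed picture. Among the 14 members with more than 1 probe set, 10 second probe sets were bright enough to be tested. Of these, 5 had the sign of the first probe set and 5, those of Mcm5, Pola2, Rfc1, Rfc5 and Lig1, the opposite sign. Of those 5, 4 were of a less specific design and 3 were at background on at least 1 array. The second Lig1 probe set, at background on 2 branching arrays and 1 non-branching array, differed by -1.97 ± 0.82 (limma adjusted p = 0.311, unadjusted p = 0.0399). None of the 10 was called. When a gene's probe sets were averaged instead of taking the brightest one, 32 of 41 members had a difference above 0 (a count chosen after the data were seen), and 4 were called: Chaf1b, Fen1, Pcna and Rrm2.

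Promoters of the 4 called genes are shown because E2F factors, the classic activators of replication genes, act through promoter sites. The sequences are the 250 bases before the annotated start in RefSeq on GRCm38.p6, 5′ to 3′ on the strand of the gene. They lie at chr12:24708004-24708253 (+) for Rrm2, chr11:117826015-117826264 (-) for Tk1, chr16:93883651-93883900 (+) for Chaf1b and chr2:132253181-132253430 (-) for Pcna. Capitals mark matches, on either strand, to the E2F letters TTCCCGC or TTGGCGC, to the CCAAT box and to the CHR element TTTGAA, a cell cycle element.
Rrm2: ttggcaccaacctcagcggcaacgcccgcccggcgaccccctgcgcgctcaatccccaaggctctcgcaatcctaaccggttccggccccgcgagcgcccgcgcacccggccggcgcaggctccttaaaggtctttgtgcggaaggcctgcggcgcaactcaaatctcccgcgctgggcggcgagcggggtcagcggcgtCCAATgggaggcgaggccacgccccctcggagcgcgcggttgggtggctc
Tk1: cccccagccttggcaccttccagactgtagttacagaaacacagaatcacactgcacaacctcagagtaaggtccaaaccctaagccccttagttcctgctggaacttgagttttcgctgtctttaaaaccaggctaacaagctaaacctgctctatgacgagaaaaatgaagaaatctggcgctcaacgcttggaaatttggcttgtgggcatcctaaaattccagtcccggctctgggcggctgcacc
Chaf1b: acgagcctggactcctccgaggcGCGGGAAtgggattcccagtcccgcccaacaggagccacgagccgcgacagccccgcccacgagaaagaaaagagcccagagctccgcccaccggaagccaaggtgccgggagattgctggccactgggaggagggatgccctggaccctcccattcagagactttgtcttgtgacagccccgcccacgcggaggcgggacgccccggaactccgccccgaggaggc
Pcna: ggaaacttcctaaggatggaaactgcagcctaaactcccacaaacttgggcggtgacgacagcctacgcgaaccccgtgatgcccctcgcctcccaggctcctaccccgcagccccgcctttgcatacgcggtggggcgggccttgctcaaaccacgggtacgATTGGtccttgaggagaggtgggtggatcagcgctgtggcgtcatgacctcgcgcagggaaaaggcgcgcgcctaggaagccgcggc
Chaf1b held an E2F match, on the opposite strand, Rrm2 a CCAAT box and Pcna a CCAAT box on the opposite strand, while Tk1 held none of these letters in this window.

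Promoter sequence was found for 40 of the 45 members on the array. An E2F match lay in 13 of the 40 (32.5%), against 11.8% of 5446 tested genes with a sequence and 6.45% of all 27025 genes in the table. Those 13 were Cdc6, Cdc7, Chaf1a, Chaf1b, Mcm5, Mcm6, Mcm7, Orc4, Pola1, Prim1, Rpa2, Rpa3 and Rrm1. A CCAAT box lay in 23 of the 40 (57.5%), against 40.0% of tested genes and 37.5% of all, and TTTGAA in 6 (15%), against 13% and 18.3%. A match describes the letters and is not a measured binding site. The 13 genes include 1 that was called and several with regions that overlapped, such as Orc4, Prim1 and Rrm1.

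Other genes of the same processes, outside the 48, were summarised from 2 further lists. Of 39 replication fork genes, 28 were on the array and 27 were tested. Limma called 1 higher and 0 lower, 20 of the 27 had a difference above 0 (74.1%), and the median was 0.28. The gene called was Uhrf1, which recruits the maintenance DNA methyltransferase to new DNA. It read 3184, 3183 and 3821 in branching and 1566, 2062 and 2125 in non-branching (0.83 ± 0.14, adjusted p = 0.0187).

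Of 40 nucleotide supply genes, 31 were on the array and 29 were tested. Limma called 1 higher and 0 lower, 21 of the 29 had a difference above 0 (72.4%), and the median was 0.23. The gene called was Ctps, which makes CTP from UTP. It read 3641, 3034 and 3066 in branching and 1885, 1772 and 1710 in non-branching (0.86 ± 0.11, adjusted p = 0.00563).

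Genes of mitosis, which act after replication in the same cycle, were summarised in the same way. Of 33 on the array and tested, out of 42 listed, limma called 1 higher and 0 lower, 32 had a difference above 0 (97.0%), and the median was 0.39. The gene called was Prc1, a bundler of spindle microtubules, at 952, 983 and 896 in branching and 573, 438 and 552 in non-branching (0.87 ± 0.17, adjusted p = 0.0314). In 19 of the 33 (57.6%) the branching arrays all lay above the non-branching arrays, beside 57.1% of the members and 10.2% of all genes. In 1 they all lay below, beside 0 of the members and 11.7% of all genes. That was Cenpe, the 1 gene of this list with a difference below 0 (-1.66, limma adjusted p = 0.302). The difference between the lists was not tested.

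**Figure D4:**
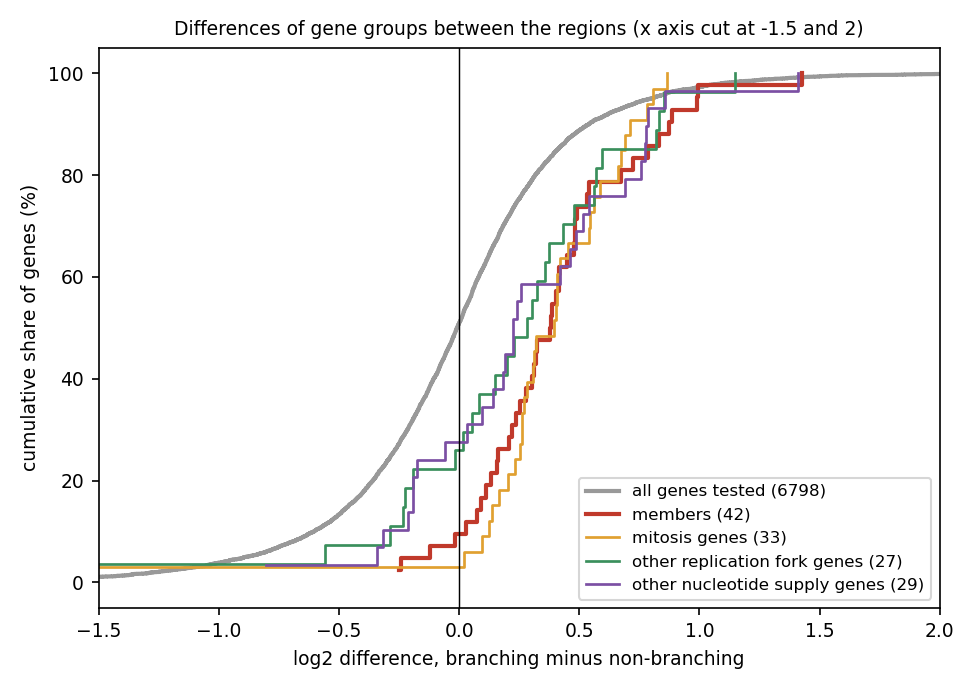
Cumulative share of genes (y axis, percent) with a log2 difference between the regions up to the value on the x axis, for all 6798 genes tested, the 42 members, 33 mitosis genes, 27 other replication fork genes and 29 other nucleotide supply genes. The medians of the members and of the mitosis genes, 0.38 and 0.39, lie right of the median of all genes, -0.01. The medians of the other 2 lists lie between, at 0.28 and 0.23.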

How the data were processed

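The deposited values are probe set intensities on a linear scale, 1 column per array. Software and settings of the authors were not given in the sources used here. The mean of the values without the lowest and highest 2% was 500.3 on every array, which shows a common scaling before deposit that was kept. Of 12488 probe sets, 66 controls were left out; the platform annotation gave 1 symbol to 10833, several to 396 and none to 1193.

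Values under 16 were set to 16 and log2 was taken, which understates the change of dim genes. The 25% with the lowest mean were left out and the other 9316 were fitted in limma 3.58.1 under R 4.3.3 (2 groups, eBayes with a variance trend, two-sided), with Benjamini-Hochberg adjustment over all of them. The members, lists and tests were chosen with earlier results of these data known. Genes given with all 6 values are those called and, in each step, those with the smallest p until 3 are named. Mcm2, Cdt1 and Orc6 are given with all 6 values in addition to these. Alternatives were 2 scalings, 2 filters, 2 floors, 3 variance models, the replicate number as a block, an adjusted p under 0.10, the mean of a gene's probe sets and the omission of each array.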

Additional observations from a re-analysis of the deposited data

How the results depend on the processing

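Members called higher numbered 4 to 6 under quantile normalization, median centring, the stricter filter, both floors, array weights and the mean of a gene's probe sets, which lost Tk1 and added Fen1, and 0 were lower under any alternative tried. Members called higher fell to 2 with no filter on dim probe sets (Chaf1b and Rrm2), to 0 without the variance trend, to 0 without moderation of the variance, and rose to 8 at an adjusted p under 0.10. The median member difference was 0.42 with arrays centred on their median, 0.32 with no filter and 0.34 with the mean of a gene's probe sets. Over all probe sets, the counts higher and lower were 84 and 105 in the reported fit, 38 and 62 with no filter, 5 and 17 without the trend, 2 and 9 without moderation, and 164 and 195 at an adjusted p under 0.10. With 1 array left out they ran from 16 to 69 higher and 38 to 98 lower, and members called higher from 1 (without replicate 3 of either region) to 5. The cause of these changes was not tested. The count of members with a difference above 0, added after the data were seen, was 36 to 39 of 42 in the omissions.

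With the replicate number as a block, 44 probe sets were higher and 70 lower, and 2 members (Chaf1b and Rrm2) were called, but not Tk1 (adjusted p = 0.0570) or Pcna (0.0903). Deviations of same-numbered arrays from the mean of their region correlated at -0.0150 to 0.0127, and 0 of 6 arrays correlated best with its own number. Such correlations cannot tell whether same-numbered arrays came from the same embryos, which the labels do not say. Of the 38 members not called, 35 had an adjusted p of 0.05 or more under every alternative that kept that threshold, and Fen1, Cdc6, Mcm4 and Mcm7 were added at the threshold of 0.10. Signals near the background level of 147 limit Orc2, Pole2, Prim1, Prim2 and Chaf1a.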
